A study of Caenorhabditis elegans with 4 samples.

Results

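The 26S proteasome was examined through the genes of its structural subunits in whole Caenorhabditis elegans larvae. The list holds 32 genes, of which 14 encode the 20S core particle (pas for the alpha ring, pbs for the beta ring) and 18 the 19S regulatory particle (rpt for its ATPases, rpn for the rest). They were selected by subunit name and not by expression values, though with earlier results of these data known. Of the 32, 31 had a matched accession among 41614 genes with values. The alpha subunit pas-3 had none and was not analysed here. All 31 passed the filter of a mean of 1 FPKM or more (fragments per kilobase of transcript, scaled to mapped fragments), as did 15202 genes in all.

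Total RNA was sequenced from 2 libraries of dve-1(uf171) mutants (labelled DVE-1 mutant) and 2 libraries of wild-type animals (labelled WT), all at the L1 stage. DVE-1 is a homeodomain protein of the mitochondrial unfolded protein response. Per the labels' protocols, all strains were kept at 25 degrees Celsius on E. coli OP50, and about 1200 synchronized larvae went into an extraction. What the allele changes in the gene is not stated. Whether replicates are separate cultures is not stated either, so p-values cover the spread between libraries alone, which may be technical.

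The proteasome degrades proteins that carry ubiquitin. The stacked alpha and beta rings of the 20S core form a barrel: alpha subunits make the gate at each end, and beta-1, beta-2 and beta-5 cut peptide bonds inside. The 19S particle caps the barrel: its base holds a ring of ATPases that unfold the substrate and open the gate, with ubiquitin receptors beside it, and its lid removes the ubiquitin chain. In C. elegans the ER-anchored isoform SKN-1A of the transcription factor SKN-1 raises subunit transcription when proteasome activity falls.

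No proteasome subunit gene could be called different between genotypes: 0 of 31 passed the limma threshold (adjusted p = 0.434 to 0.999, Benjamini-Hochberg over all 15202 genes, threshold 0.05), and 0 reached an unadjusted p under 0.05. Over all tested genes, 1.66% passed in either direction (0.303% higher and 1.36% lower in the mutant), and 11.9% reached an unadjusted p under 0.05. Differences of this size could hardly have been called. The largest among the 31 was a log2 fold change of -0.43, whereas the smallest called difference among the 2073 genes within the same range of mean FPKM was 1.67. In a simulation of this comparison over 15202 genes, limma called 0% of genes changed 1.5-fold, 4% of those changed 2-fold and 80% of those changed 4-fold. The changed genes were drawn from a wider range of levels than that of the subunit genes, so these rates are not specific to their level.

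By subcomplex, the values were as follows, with no test of 20S against 19S genes. All 13 measured 20S genes had a log2 fold change below 0 (mutant over wild type, on the log2(FPKM + 1) scale), with a median of -0.21. Of 18 19S genes, 13 were below 0, with a median of -0.10. Of all tested genes 39.3% were below 0, and their median was 0.09. The 20S and 19S medians varied between replicates with a within-genotype SD of 0.09 and 0.11, close to the gap between them. Both medians were higher in the second library of each genotype, so these SDs do not measure the spread of the gap itself. In 11 of the 13 20S genes (84.6%), both mutant values were under both wild-type values, against 5 of the 18 19S genes (27.8%) and 15.9% of all tested genes. In 0 of the 31 were both mutant values over both wild-type values, as they were in 28.1% of all tested genes. This count rests on the authors' scale. With every library scaled to the same sum, 0 of 13 20S genes and 0 of 18 19S genes kept both mutant values below, and with median-ratio scaling 12 and 13 did, against 9.0% and 23.5% of all tested genes.

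**Figure D1:**
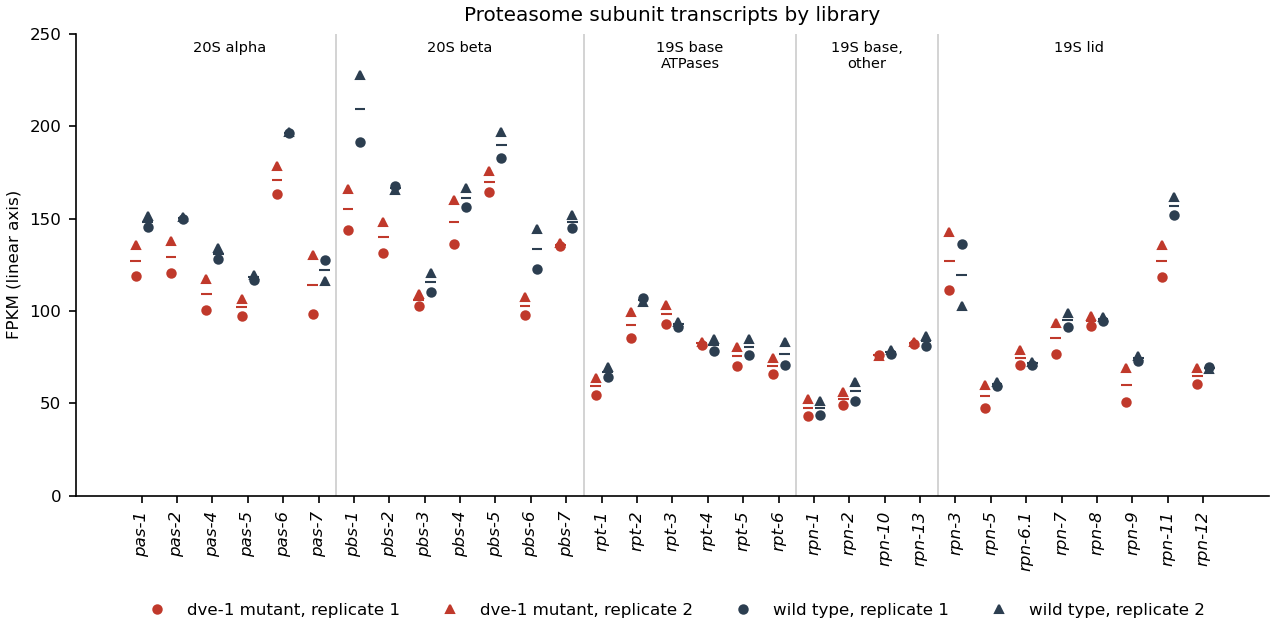
FPKM (linear axis) of the 31 measured proteasome subunit genes in each library, grouped by subcomplex; points are libraries and short lines are means of 2. Mutant points sit below wild-type points in 11 of 13 20S genes, and the groups overlap in 13 of 18 19S genes.

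In the alpha ring, 5 of 6 measured genes had log2 fold changes of nearly the same size. The outer ring gene pas-1 stood at 119 and 136 FPKM in the mutant libraries, against 145 and 151 FPKM in wild type. For pas-2 the values were 120.5 and 138 FPKM in the mutant and 149.5 and 151 FPKM in wild type. In both genes the wild-type libraries nearly coincided and the mutant libraries lay apart and lower.

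pas-4 was at 101 and 117 FPKM in the mutant and at 128 and 134 FPKM in wild type. pas-5 was at 97.3 and 107 FPKM in the mutant and at 117 and 119.6 FPKM in wild type. The most abundant alpha gene, pas-6, was at 164 and 179 FPKM in the mutant and at 196 and 197 FPKM in wild type. Log2 fold changes of these 5 genes lay between -0.26 and -0.20, with SEs of 0.10 to 0.12 and limma adjusted p of 0.527 to 0.564. pas-7 alone overlapped, at 98.3 and 130.1 FPKM in the mutant and 128 and 116 FPKM in wild type (log2 fold change -0.11, SE 0.18), and its exons overlap those of lact-2 on the opposite strand.

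Among the catalytic beta subunits, named by homology with yeast, the caspase-like subunit gene pbs-1 stood at 144 and 166 FPKM in the mutant and at 191 and 228 FPKM in wild type. It averaged 155 ± 15.5 FPKM in the mutant and 209 ± 25.6 FPKM in wild type (SD, n = 2 each), with a log2 fold change of -0.43, the furthest from 0 of the 31 (95% confidence interval -0.87 to 0.01, limma adjusted p = 0.434). The trypsin-like subunit gene pbs-2 stood at 131 and 148 FPKM in the mutant and at 168 and 165 FPKM in wild type (log2 fold change -0.25, interval -0.58 to 0.07, limma adjusted p = 0.4999). The chymotrypsin-like subunit gene pbs-5 stood at 164 and 176 FPKM in the mutant and at 183 and 197 FPKM in wild type (log2 fold change -0.16, interval -0.46 to 0.14, limma adjusted p = 0.625). For these 3 genes both mutant values were below both wild-type values on the deposited scale, as in 15.9% of all tested genes. With every library scaled to the same sum, this held in 0 of 13 20S genes.

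The other beta subunits form the ring without cutting. pbs-6 was at 98.0 and 108 FPKM in the mutant and at 123 and 144 FPKM in wild type (log2 fold change -0.37, limma SE 0.14, adjusted p = 0.453). pbs-3, pbs-4 and pbs-7 had log2 fold changes of -0.12, -0.13 and -0.12. Of these, pbs-7 stood at 135 and 137 FPKM in the mutant against 145 and 152 FPKM in wild type, and pbs-4 overlapped, at 136 and 160.04 FPKM in the mutant and 156 and 166 FPKM in wild type. Exons of pbs-3, pbs-4 and pbs-7 overlap another protein-coding gene. All 9 20S genes whose exons overlap no other gene, coding or noncoding, had both mutant values below both wild-type values. So did 1 of 11 such 19S genes and 15.9% of all tested genes. With every library scaled to the same sum 0 of 9 and 0 of 11 did, and with median-ratio scaling 9 of 9 and 6 of 11 did.

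**Figure D2:**
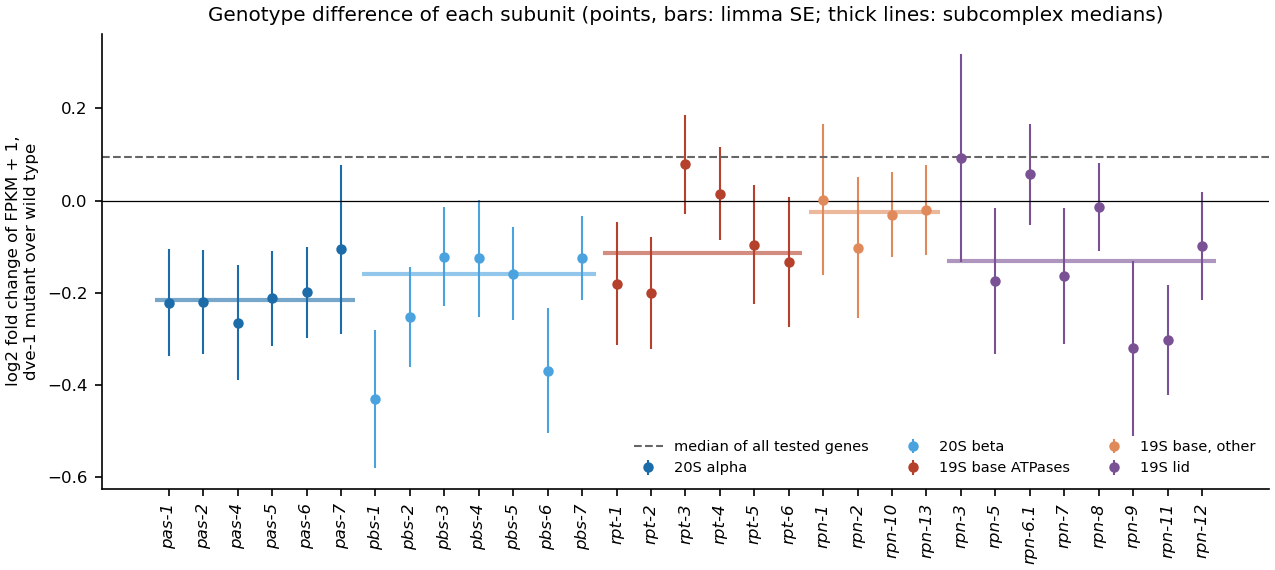
Log2 fold change of FPKM + 1, dve-1 mutant over wild type, for each subunit gene with its limma SE; thick lines are subcomplex medians and the dashed line is the median of all tested genes. The alpha ring has a median of -0.22, the beta ring -0.16, the base ATPases -0.11, the other base subunits -0.03 and the lid -0.13.

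The ATPases of the 19S base were divided. rpt-1 (54.4 and 63.9 FPKM in the mutant, 64.3 and 69.7 FPKM in wild type) and rpt-2 (85.2 and 99.3 FPKM in the mutant, 107 and 105 FPKM in wild type) had both mutant values below, with log2 fold changes of -0.18 and -0.20. rpt-3 was at 92.9 and 103 FPKM in the mutant and at 91.2 and 94.3 FPKM in wild type, a log2 fold change of 0.08 (interval -0.24 to 0.40). In rpt-5 and rpt-6 the groups overlapped, with log2 fold changes of -0.10 and -0.13. The tails of Rpt2, Rpt3 and Rpt5 are known in yeast to dock into the alpha ring and open its gate. Of the 3 worm genes, rpt-2 alone had both mutant values below on the deposited scale, against 15.9% of all tested genes. With every library scaled to the same sum 0 of 18 19S genes did. The intervals of rpt-2 (-0.56 to 0.16), rpt-3 and rpt-5 (-0.48 to 0.29) overlap, so rpt-2 is not set apart from the other 2.

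rpt-4 overlapped as a gene and not by isoform. Summed over accessions it stood at 81.5 and 83.5 FPKM in the mutant and at 78.4 and 84.9 FPKM in wild type. Of its 2 accessions, the first stood at 63.9 and 52.2 FPKM in the mutant, against 23.9 and 15.001 FPKM in wild type. The other accession stood at 17.6 and 31.3 FPKM in the mutant, against 54.5 and 69.9 FPKM in wild type. The first thus held 78.4% and 62.5% of the gene's FPKM in the mutant, against 30.4% and 17.7% in wild type.

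Neither rpt-4 accession passed in a fit over all accessions (log2 fold changes 1.56, SE 0.29, and -1.36, SE 0.35; limma adjusted p = 0.194 and 0.341), where 1.38% of 17854 accessions did. Opposite shifts without overlap occurred in 14.3% of the 2051 genes with at least 2 tested accessions. The 2 annotated rpt-4 transcripts (WBcel235, chromosome II, 42207 to 46216 and 42254 to 43662, minus strand) share 1309 nt, and exons of rpt-4 overlap rpoa-49 on the opposite strand. The longer has 152 nt of its own and the shorter 0, so their FPKM rest on how reads in shared exons were divided. Which accession belongs to which transcript was not determined. rpn-6.1, the other subunit gene with 2 accessions, showed no such pattern: its first accession held 77.2% and 58.4% of its FPKM in the mutant and 64.1% and 73.6% in wild type.

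The remaining base subunits had a median of -0.03 on the deposited scale, and of 0.11 with every library scaled to the same sum. rpn-10, whose product binds ubiquitin chains, stood at 76.2 and 75.6 FPKM in the mutant and at 76.5 and 78.7 FPKM in wild type (log2 fold change -0.03, interval -0.30 to 0.24). The ubiquitin receptor gene rpn-13 stood at 82.3 and 83.1 FPKM in the mutant and at 81.1 and 86.7 FPKM in wild type (-0.02, interval -0.31 to 0.27). The scaffold genes rpn-1 and rpn-2, the least abundant with rpn-5, averaged 47.7 ± 6.72 and 52.4 ± 4.94 FPKM in the mutant and 47.5 ± 5.04 and 56.5 ± 7.23 FPKM in wild type (SD, n = 2 each). In rpn-10 neither mutant value reached the wild-type values, and in the other 3 genes the groups overlapped. The intervals of rpn-10 and rpn-13 include the alpha ring median of -0.22, so a difference of that size is not excluded for either gene.

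In the lid, the deubiquitinase gene rpn-11 resembled the core. It stood at 119 and 136 FPKM in the mutant and at 152 and 162 FPKM in wild type (log2 fold change -0.30, limma SE 0.12, adjusted p = 0.474). Its exons overlap those of pqn-48 on the opposite strand. Its partner in the same dimer, rpn-8, stood at 91.8 and 97.3 FPKM in the mutant and at 94.4 and 96.6 FPKM in wild type (-0.01, SE 0.10). In rpn-11 the groups lay apart and in rpn-8 they overlapped; the difference between the log2 fold changes was not tested.

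rpn-9 stood at 51.0 and 69.03 FPKM in the mutant and at 72.9 and 75.9 FPKM in wild type (log2 fold change -0.32, SE 0.19, limma adjusted p = 0.601). Both mutant values were below, and its exons overlap those of the noncoding RNA gene T06D8.12 on the opposite strand. rpn-6.1, which encodes the subunit that clamps the lid to the core and is known in C. elegans for a part in lifespan, stood at 70.6 and 78.9 FPKM in the mutant and at 70.7 and 72.7 FPKM in wild type (0.06, SE 0.11). rpn-3, for another structural lid subunit, had the largest SE of the 31 (0.23), at 111 and 143 FPKM in the mutant and 136 and 102 FPKM in wild type. rpn-5, rpn-7 and rpn-12 had log2 fold changes of -0.17, -0.16 and -0.10, with overlapping groups.

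The proportions within the complex do not depend on library scale. Summed over measured genes, 20S FPKM were 1.21 and 1.19 times 19S FPKM in the mutant libraries, against 1.30 and 1.33 times in wild type. As shares of all proteasome subunit FPKM, 20S genes made up 54.8% and 54.4% in the mutant and 56.6% and 57.0% in wild type. For this ratio of sums, and the shares derived from it, the gap between genotypes exceeded the gap between replicates. The ratio of median 20S to median 19S FPKM, 1.64 and 1.72 in the mutant against 1.90 and 1.80 in wild type, did not overlap either, but the gap between its nearest mutant and wild-type values was smaller than that between wild-type replicates. No p-value was computed for these ratios, since a permutation of 2 against 2 libraries cannot reach 0.05. Of 13 20S genes, 7 had a lower share in both mutant libraries than in either wild-type library and 0 a higher one. Of 18 19S genes, 9 had a higher share and 2, rpn-9 and rpn-11, a lower one. Shares within the complex have no counterpart over all tested genes. On the deposited scale, both mutant values were below in 15.9% of all tested genes and above in 28.1%. Shares add up to a whole, so a lower share of some genes forces a higher share of others.

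**Figure D3:**
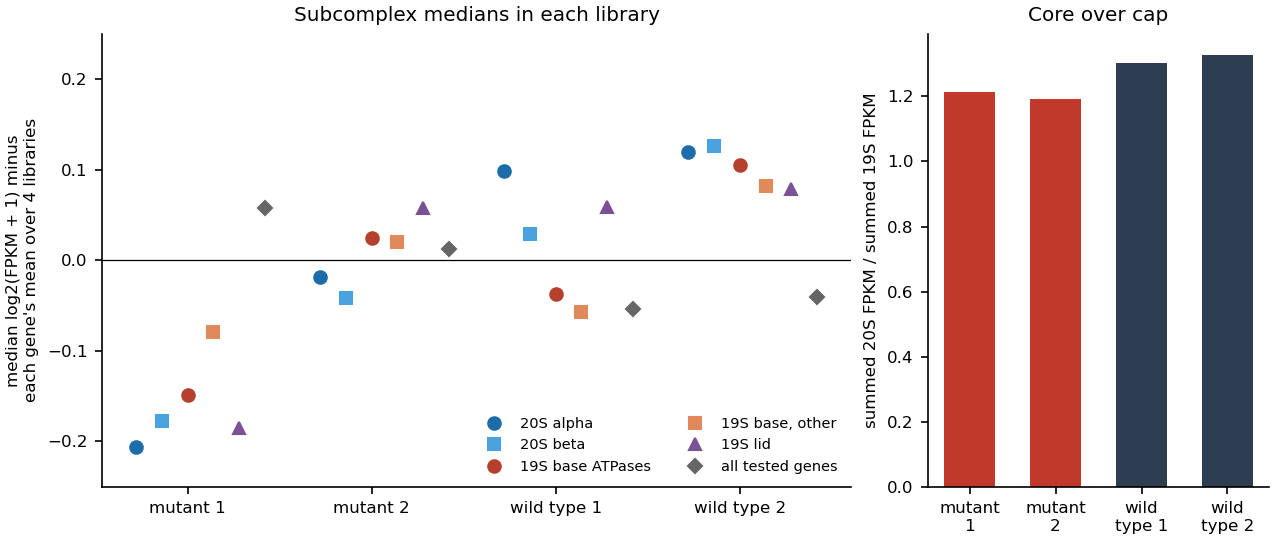
Left, the median over each subcomplex of log2(FPKM + 1) minus each gene's mean over the 4 libraries, with all tested genes as diamonds; right, summed 20S over summed 19S FPKM (linear axis from 0). The first mutant library is lowest in every subcomplex, and the ratio is 1.21 and 1.19 in the mutant against 1.30 and 1.33 in wild type.

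Subunit genes moved together between replicates as well. The second mutant library was above the first in 30 of 31 genes (41.8% of all tested genes), by a median of 0.19 on the log2 scale, and the second wild-type library was above the first in 26 of 31 (50.6% of all tested genes), by a median of 0.07. The step between mutant replicates was thus about as large as the 20S difference between genotypes. Without the first mutant library the 20S median was -0.13 and the 19S median -0.01. The remaining mutant value was then over both wild-type values in 1 of 13 20S genes and 5 of 18 19S genes, against 41.4% of all tested genes. It was under both in 11 and 5, against 26.3%, counts that cannot fall when a mutant library is dropped. Without the second mutant library the medians were -0.31 and -0.19, with 13 and 14 genes below, against 26.2% of all tested genes. Without the first wild-type library 12 and 12 genes were below, against 28.6%, and without the second 11 and 6, against 27% of all tested genes.

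The median log2 fold change of all genes was 0.09 on the deposited scale, 0.21 after scaling to equal sums and -0.01 after median-ratio scaling. Relative to it, the 20S median was -0.31 on the deposited scale, and between -0.32 and -0.26 under the other settings with all 4 libraries. The 19S median relative to all genes was -0.19, and between -0.21 and -0.16. With 1 library left out these relative medians ranged from -0.41 to -0.18 (20S, nearest to 0 without the first mutant library) and from -0.30 to -0.07 (19S, likewise).

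The 31 transcripts were abundant and spanned a narrow range. Over the 4 libraries, mean FPKM ran over 3.86-fold, between 47.6 for rpn-1 and 183.7 for pas-6. FPKM is per length, and by it the 20S genes held 11 of the 13 highest places and spanned 1.67-fold, and the 19S genes spanned 2.99-fold. Mean FPKM still correlated with transcript length over the 31 genes (Spearman rho -0.65), and the part of length in this order was not tested. Only rpn-3 and rpn-11 of the 19S genes lay above the lowest 20S gene, pas-5. The median over 20S genes was 120.5 and 137 FPKM in the mutant and 145 and 151 FPKM in wild type, and over 19S genes 73.4 and 79.7 FPKM in the mutant and 76.4 and 84.0 FPKM in wild type. The median tested gene had a mean of 13.4 FPKM in the mutant and 12.6 FPKM in wild type. Across the 31 genes, log2 mean FPKM of the 2 genotypes correlated at 0.98 (Pearson, a description across genes of the same 4 libraries).

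The 20S genes are also shorter. Their longest annotated transcripts measure 801 to 1059 nt, with a median of 878 nt, against 855 to 3171 nt and a median of 1484 nt for 19S genes. Across the 31 genes, transcript length correlated with log2 fold change at a Spearman rho of 0.46 and with mean FPKM at -0.65. These are descriptions across genes that share the 4 libraries, and over the tested protein-coding genes length and log2 fold change correlated at -0.03. After a loess correction for mean level and transcript length, chosen after seeing the data, the 20S and 19S medians were -0.24 and -0.15. That correction also centres each library on its genes. These values therefore compare with the medians relative to all genes, -0.31 and -0.19, and not with those on the deposited scale. rpn-12, the only 19S gene within the length range of the core genes (855 nt), had a log2 fold change of -0.10. Mean fragment length, estimated from steps of low values, was 185 and 190 nt in wild type. The mutant libraries gave no settled estimate (220 and 115 nt), and its part in the 20S difference was not tested.

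**Figure D4:**
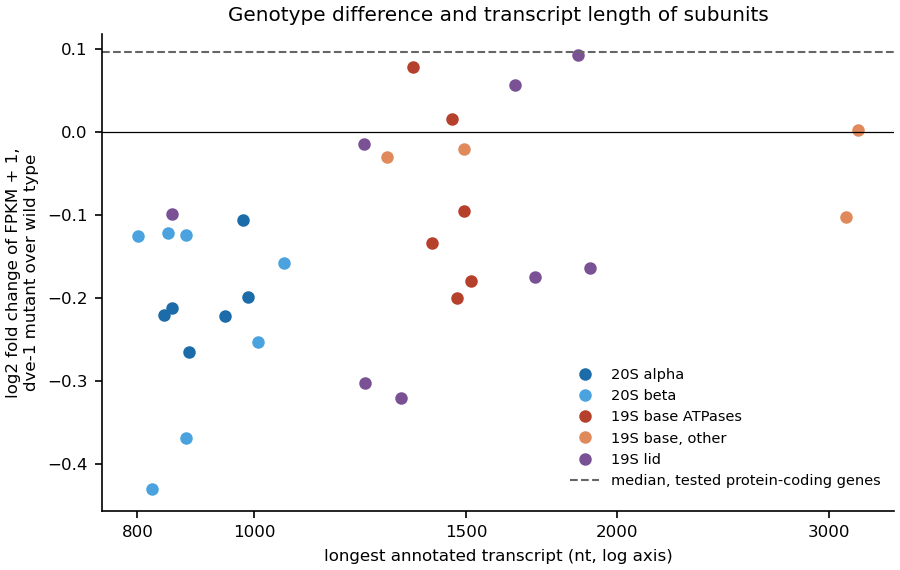
Log2 fold change of FPKM + 1, dve-1 mutant over wild type, against the longest annotated transcript (nt, log axis) of each subunit gene. All 13 20S genes lie at 801 to 1059 nt and below 0, and the 19S genes spread between 855 and 3171 nt.

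By position, 0 of the 32 genes lie on chromosome X, which holds 14.3% of tested protein-coding genes and dve-1 itself. Chromosome I holds 10, II and III hold 7 each, V holds 5 and IV holds 3. Of the 31 measured genes, 7 start within 500 nt of an upstream gene on the same strand (22.6%, against 18.9% of tested protein-coding genes), a spacing that in C. elegans is often, though not always, a sign of an operon. Upstream of pas-1 (chromosome V, 14421566 to 14422618, minus strand, WBcel235) lies rpoa-12 at a distance of 106 nt, with 54.9 and 54.4 FPKM in the mutant and 60.6 and 48.06 FPKM in wild type. Upstream of rpn-10 (chromosome I, 10730712 to 10732424, minus strand) lies mrpl-9 at 118 nt, with 108 and 106 FPKM in the mutant and 101 and 94.4 FPKM in wild type. Their log2 fold changes, 0.02 and 0.13, stand beside -0.22 for pas-1 and -0.03 for rpn-10.

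Factors that work with the proteasome gave a mixed picture. Of 9 tested genes of 12 listed, 1 fell, 0 rose and the median log2 fold change was -0.26. Over all tested genes 1.66% passed. Both mutant values were below in 5 of the 9 and above in 1, against 15.9% and 28.1% of all tested genes. The 1 that passed was ecps-2, a homolog of the proteasome adaptor ECM29, at 0.0728 and 0 FPKM in the mutant and at 19.02 and 21.1 FPKM in wild type (limma adjusted p = 0.0118). The gene of related name, ecps-1, stood at 6.53 and 7.55 FPKM in the mutant and at 9.72 and 14.1 FPKM in wild type. Its longest transcript measures 5578 nt, against 1290 nt for ecps-2. Their sequences were not compared, and whether reads shared between them affect either value was not tested. Genes named after their values were seen include psme-3, the PA28 gamma activator, at 49.3 and 59.0 FPKM in the mutant and 65.2 and 65.2 FPKM in wild type. The shuttle factor gene rad-23 stood at 85.8 and 95.2 FPKM in the mutant and at 101 and 116 FPKM in wild type. The adjusted p of these genes was 0.546 and 0.552 by limma. In the other direction, ubql-1, a ubiquilin shuttle factor gene, stood at 88.6 and 81.3 FPKM in the mutant and at 77.5 and 70.5 FPKM in wild type. aip-1 stood at 204 and 179 FPKM in the mutant, overlapping 184 and 98.7 FPKM in wild type (log2 fold change 0.50).

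In the pathway through which SKN-1A activates proteasome genes, 0 of 5 genes passed, and the median log2 fold change was -0.06. Both mutant values were above in 2 of the 5 and below in 1, against 28.1% and 15.9% of all tested genes. skn-1 stood at 66.1 and 97.4 FPKM in the mutant and at 79.0 and 121 FPKM in wild type, with overlapping groups (limma adjusted p = 0.719). The ER ubiquitin ligase gene sel-11 stood at 45.1 and 39.3 FPKM in the mutant and at 31.0 and 35.7 FPKM in wild type, both mutant values above (limma adjusted p = 0.501). Its partner sel-1, named after its values were seen, did likewise, at 44.1 and 38.2 FPKM in the mutant and 30.7 and 33.3 FPKM in wild type (limma adjusted p = 0.456). png-1, also named after its values were seen, encodes the peptide N-glycanase that deglycosylates SKN-1A. It went the other way, at 14.95 and 17.1 FPKM in the mutant and 20.7 and 19.1 FPKM in wild type (log2 fold change -0.30). In ddi-1 the groups overlapped, at 19.9 and 17.8 FPKM in the mutant and 20.2 and 19.1 FPKM in wild type (log2 fold change -0.06). The values are for whole genes and do not separate the SKN-1 isoforms.

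Among the segregase CDC-48 and its cofactors, 0 of 8 tested genes of 11 listed passed, with a median of -0.03. cdc-48.1 averaged 78.0 ± 18.5 FPKM in the mutant and 85.5 ± 2.75 FPKM in wild type, and cdc-48.2 averaged 72.2 ± 3.09 FPKM in the mutant and 73.2 ± 6.56 FPKM in wild type (SD, n = 2 each). ubxn-1, named after its values were seen, stood at 28.3 and 26.1 FPKM in the mutant and at 42.1 and 42.6 FPKM in wild type (log2 fold change -0.62, limma adjusted p = 0.1702). It was the 1 gene of the 8 with both mutant values below, against 15.9% of all tested genes. In 2 of the 8 both were above, against 28.1% of all tested genes. Of these, ufd-1 stood at 56.3 and 50.99 FPKM in the mutant against 48.3 and 48.8 FPKM in wild type. ufd-3 stood at 47.4 and 40.9 FPKM in the mutant against 36.6 and 38.05 FPKM in wild type. The close copies npl-4.1 and npl-4.2 were listed at 0 in 4 and 3 libraries. Of 4 genes for ubiquitin and its activating enzyme, 3 were tested and 0 passed. The ubiquitin fusion gene ubq-2 stood at 5659 and 5770.1 FPKM in the mutant and at 6538 and 6519 FPKM in wild type (limma adjusted p = 0.492), and the polyubiquitin gene ubq-1 at 196 and 207 FPKM in the mutant and at 239.6 and 197 FPKM in wild type.

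Other large complexes were set beside the proteasome, read from the same fit. The COP9 signalosome and eIF3 share the subunit architecture of the lid. Of 6 COP9 genes tested 0 passed (median -0.01). In 0 were both mutant values below and in 1 both above, against 15.9% and 28.1% of all tested genes. csn-2 stood at 53.2 and 55.0 FPKM in the mutant, against 41.6 and 42.8 FPKM in wild type. cif-1, whose product also belongs to eIF3, stood at 134 and 180.01 FPKM in the mutant and at 171 and 172 FPKM in wild type. Of 11 eIF3 genes 1 passed, against 1.66% of all tested genes. It was eif-3.L, listed at 0 in both mutant libraries and at 76.6 and 78.7 FPKM in wild type. The part of read assignment in the values of 0 was not tested. The eIF3 median, -0.20, was close to that of the 20S genes. Both mutant values were below in 2 of 11 eIF3 genes, against 15.9% of all tested genes, and the first mutant library was lowest in most.

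The cytosolic chaperonin CCT had a median of 0.15, with 0 of 8 genes called and both mutant values above in 5, against 1.66% and 28.1% of all tested genes. cct-1 stood at 229.9 and 251 FPKM in the mutant, against 222 and 200.4 FPKM in wild type. cct-2 stood at 219 and 237 FPKM in the mutant and at 204 and 186 FPKM in wild type. No test of the proteasome against these complexes was made.

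**Figure D5:**
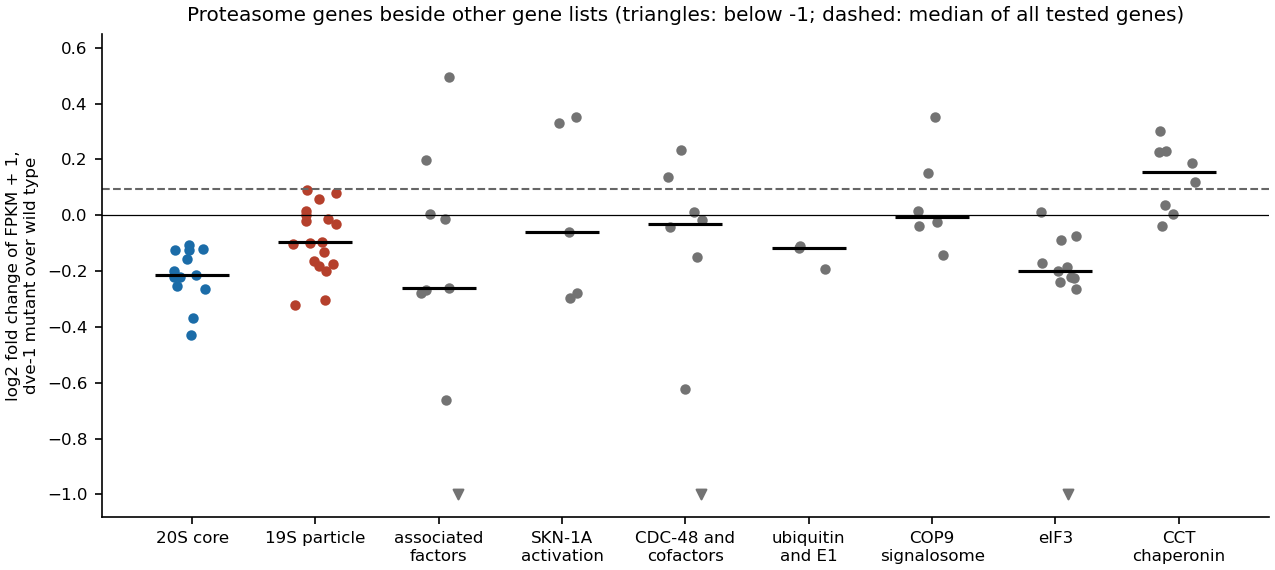
Log2 fold change of FPKM + 1, dve-1 mutant over wild type, for 20S and 19S genes and 7 other lists; points are genes, lines are medians, triangles are genes below -1 and the dashed line is the median of all tested genes. Medians are -0.21 for the 20S core, -0.10 for the 19S particle, -0.20 for eIF3 and 0.15 for CCT.

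Values of the whole libraries and of cell type markers are as follows, and not all of them followed the subunit genes. Summed FPKM were 2.25e+06 and 2.05e+06 in the mutant and 2.39e+06 and 2.35e+06 in wild type. dve-1 was present in both genotypes, at 23.4 and 25.5 FPKM in the mutant and 15.1 and 19.5 FPKM in wild type, which does not check the labels. The 4 tested intestine markers of 5 listed summed to 726 and 1204 FPKM in the mutant and to 1419 and 1291 FPKM in wild type. The sum was lowest in the first mutant library, as were the subcomplex medians. act-5 and ifb-2 made up most of it. ges-1 was lowest in the first wild-type library, at 8.90 and 10.3 FPKM in the mutant and 7.62 and 9.16 FPKM in wild type. In elt-2 the groups overlapped too. Summed cuticle and moulting genes (18 of 19) were 72.1 and 360.2 FPKM in the mutant and 759.7 and 38.5 FPKM in wild type. Body wall muscle (3 of 4), neuron (4 of 5) and pharynx (3 of 3) markers were present in every library at sums of 622 to 936 FPKM, and 2 of 4 germ line markers were tested, at 11.4 to 13.6 FPKM. The part of these marker differences in the subunit values was not tested. In these whole animals fewer cells of a type and less RNA per cell cannot be told apart.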

How the data were processed

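The authors deposited FPKM for 52491 RefSeq accessions in 4 libraries. TopHat2, Cufflinks and build ce11 are named in the submitters' processing notes, with versions, strandedness and multi-mapping not given in the sources used here. Accessions were matched without version to a RefSeq gene table of WBcel235, the same assembly: 47645 matched, giving 41614 genes with summed FPKM, and 4846, with 20.9% to 21.7% of summed FPKM, did not. Transcript structure came from the Ensembl annotation.

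Genes averaging 1 FPKM or more entered limma 3.58.1 (R 4.3.3) on log2(FPKM + 1) with a trend of variance on level. Adjustment was by Benjamini-Hochberg over 15202 genes. This scale understates changes of low genes. Tested on simulated data of that size, with the scatter of variances set in advance and noise independent between genes, limma gave 8 false calls among 97.

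The FPKM table gives no counts. Steps of low values gave about 2.37e+07 and 2.2e+07 fragments in wild type and less certain estimates of 1.76e+07 and 1.55e+07 in the mutant. At these depths subunit genes rest on 674 to 5394 fragments, a counting error of 1.36% to 3.85%.

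The members, lists and tests were chosen with earlier results of these data known. The rule for names took dve-1, all subunit genes and, of other lists, the genes called or else the 2 most abundant. Scaling, pseudocount, filter, limma settings, replicate block, isoform choice, gene class and each library left out were alternatives; those on genes above 0, length, single accessions and overlap of groups were added after seeing the data. With 2 libraries in each group, replicate numbers shared between genotypes were not used as pairs.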

Additional observations from a re-analysis of the deposited data

How the results depend on the processing

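No subunit gene passed the threshold under any of 18 alternatives (lowest limma adjusted p = 0.245), and 525 of 558 values of single genes kept their direction. The other 33 turned sign. With equal sums the medians were -0.076 (alpha ring), -0.018 (beta ring), 0.024 (ATPases), 0.11 (other base subunits), 0.0078 (lid) and 0.0054 (all 31). Log2 fold changes were then above 0 for pas-7 (0.034), pbs-3 (0.017), pbs-4 (0.014), pbs-7 (0.016), rpt-5 (0.043), rpt-6 (0.0054), rpn-2 (0.035), rpn-10 (0.11), rpn-13 (0.12), rpn-8 (0.12) and rpn-12 (0.0396). With median-ratio scaling the same medians were -0.34, -0.28, -0.24, -0.15, -0.25 and -0.26, and rpt-3 (-0.0435), rpt-4 (-0.11), rpn-1 (-0.12), rpn-3 (-0.0303) and rpn-6.1 (-0.065) turned below 0. rpt-4 and rpn-1 also did so with quantile normalization (-0.0039 and -0.076) and with the loess correction for level and length (-0.036 and -0.056). With its most abundant accession alone, rpt-4 stood at -1.36. The median of all genes moved with the scale too, to 0.21 with equal sums and -0.01 with median-ratio scaling.

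With 1 library left out, medians ranged from -0.31 to -0.13 (alpha ring), -0.24 to -0.11 (beta ring), -0.21 to -0.02 (ATPases), -0.086 to 0.026 (other base subunits), -0.25 to -0.0056 (lid) and -0.24 to -0.045 (all 31). Of single genes, 8 had values on both sides of 0: pas-7 (-0.31 to 0.094), rpt-4 (-0.042 to 0.072), rpn-1 (-0.14 to 0.14), rpn-2 (-0.23 to 0.026), rpn-13 (-0.068 to 0.026), rpn-3 (-0.11 to 0.30), rpn-8 (-0.056 to 0.027) and rpn-6.1 (-0.022 to 0.14). A lone library is assumed to vary like the other group. The cause of these shifts was not tested.

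Over all tested genes, higher and lower calls were 46 and 206 as reported, 31 and 132 with equal sums, 83 and 273 at a pseudocount of 0.01, 15 and 90 with the filter at 5 FPKM, 78 and 269 without a filter, 83 and 308 without the trend, 17 and 148 among protein-coding genes, and 3 and 51 among genes above 0 in all 4 libraries. With 1 library left out they ranged from 89 to 425 higher and from 37 to 678 lower. With the replicate number as a block, limma called 0 higher and 0 lower, also among the subunit genes; 1166 of all genes and 1 of 31 subunit genes had an unadjusted p under 0.05. Deviations of same-numbered libraries correlated at -0.06 over genes, so the numbers were not taken as pairs. Differences under about 2-fold could rarely be called with these libraries, and the depth of the mutant libraries is known only roughly.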
